A study of Mus musculus with 6 samples.

Results

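The genes described here are 10 members of the cascade that leads from cortical progenitors to excitatory neurons: Neurog1, Neurog2, Eomes, Insm1, Btg2, Gadd45g, Neurod1, Neurod2, Neurod4 and Neurod6. They were taken by symbol from the deposited table of read counts, where all 10 were found among 45583 rows and all 10 had enough counts to be tested. The table holds 6 RNA sequencing libraries of fetal brain cortex, 1 per fetus, with 3 vehicle and 3 BPA fetuses. All fetuses were male, of the Cyp19-EGFP strain, labelled wild type and Sry positive, and dissected at GD15.5 (gestational day) by the labels and the study's methods, while the study's text elsewhere gives a later day. Dams of both groups were injected under the skin daily from GD10.5 to GD14.5. They received either bisphenol A (BPA, an estrogen-mimicking monomer of plastics) at 50 µg/kg or vehicle alone. The labels name the vehicle as peanut oil, and the study describes ethanol in peanut oil, with BPA given in the same. The strain carries an added artificial chromosome with the aromatase gene Cyp19a1 and an inserted fluorescent protein gene, on an FVBN background. Whether each fetus carried it is not clear from a label that gives both this strain and a wild type genotype. Litter is not given, so a p-value measures the spread between these fetuses, which may share a dam.

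In the embryonic cortex, radial glia at the ventricle either divide to renew themselves or give rise to intermediate progenitors, which move outward, divide once more and produce excitatory neurons. The switch is driven by proneural transcription factors of the basic helix-loop-helix (bHLH) class. Neurogenins act first and also induce the Notch ligand that holds neighboring cells back as progenitors, Eomes (also called Tbr2) and Insm1 act in intermediate progenitors, and the Neurod factors act from late progenitors into postmitotic neurons. Maternal BPA had been given while this cascade was active, and the comparison asks whether its transcripts differed in the cortex afterwards.

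For no gene of the cascade did a difference between the groups pass the test. The number with a Benjamini-Hochberg adjusted p under 0.1 in edgeR's quasi-likelihood test was 0 of 10, against 0 of 13741 genes tested (0% called), and each member had an adjusted p of 1. At an unadjusted p under 0.05 the number was also 0 of 10, where 2.20% of all genes tested were called, 1.02% with a higher and 1.18% with a lower level in BPA. DESeq2, limma-voom and edgeR's exact test gave the same count of 0 for the members at both thresholds. The estimated fold change was above 1 for 8 members and below 1 for 2 (9 and 1 when libraries were scaled by total count alone), and of all genes tested 50.5% lay above 1 and 49.5% below. For 8 of the 10 members the 95% interval lay inside a 1.5-fold change in either direction. The exceptions were Neurog1 and Neurod4, which had the fewest counts. These intervals rest on the spread between these fetuses, and with litter not given they cannot bound a difference between treated dams.

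The libraries held from 3444601 counts (BPA replicate 3) to 7180835 counts (vehicle replicate 2), and the 10 members together took 0.172% to 0.216% of the counts of a library. Counts of single members ran from 28 to 6007 per library. Levels are given as CPM, counts relative to library size, with libraries scaled by TMM (trimmed mean of M-values). Markers of the dorsal pallium were read beside the tissue label, and all 10 of these were present and tested. Tbr1, an early deep layer factor, was at 543 to 678 CPM, and Bcl11b, which marks deep layer projection neurons, at 619 to 758 CPM. Their presence cannot show how much neighboring tissue was included. Markers of the ventral telencephalon, given below, were present too, such as Nkx2-1 at 10.5 to 42.8 CPM over all libraries. Choroid plexus was visible in vehicle replicate 2 and BPA replicate 2, where Ttr, the transthyretin gene that marks it, was at 195 and 308 CPM, against 2.21 to 11.9 CPM in the other libraries. The summed level of the 6 choroid plexus markers was 4.41 to 215 CPM in vehicle and 12.3 to 343 CPM in BPA, and Kcnj13 of this list was at 0 counts in 4 of the 6 libraries. Because the tissue is a mixture, fewer cells of a type and less RNA per cell cannot be told apart.

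6 of the 10 members are bHLH factors, and the stretch of their coding sequence in which they are most alike is shown because short reads from related genes can be counted for the wrong gene. The 60 bases below encode part of the DNA-contacting basic region and part of the first helix. They are read from GENCODE M21 transcripts (GRCm38) and have in capitals the 30 bases at which all 6 genes are identical.
Neurog1: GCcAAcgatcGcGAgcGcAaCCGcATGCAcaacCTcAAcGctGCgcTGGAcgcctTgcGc
Neurog2: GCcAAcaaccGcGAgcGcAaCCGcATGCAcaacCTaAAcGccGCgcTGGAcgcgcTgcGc
Neurod1: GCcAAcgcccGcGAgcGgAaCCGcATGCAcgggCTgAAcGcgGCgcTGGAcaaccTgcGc
Neurod2: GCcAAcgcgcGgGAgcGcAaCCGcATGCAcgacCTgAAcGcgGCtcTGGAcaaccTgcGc
Neurod4: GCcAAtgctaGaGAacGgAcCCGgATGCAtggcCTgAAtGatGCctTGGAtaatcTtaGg
Neurod6: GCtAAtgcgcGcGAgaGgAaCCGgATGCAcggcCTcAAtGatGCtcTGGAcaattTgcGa

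Within this stretch the 15 gene pairs were 56.7% (Neurog2 and Neurod4) to 90% identical, the latter for Neurog1 with Neurog2 and for Neurod1 with Neurod2. Over whole transcripts the longest run of identical bases in any pair was 26 bases, again Neurog1 with Neurog2, which is shorter than the 50-base reads. None of the 50-base words of Neurog1, Neurog2, Neurod2, Neurod4, Neurod6, Btg2 or Gadd45g occurred in transcripts of another gene. The shared part was 9.66% of words for Neurod1, with its same-strand neighbor Cerkl and the opposite-strand Gm26755, 2.10% for Eomes, foremost with the antisense gene Gm33460, and 0.787% for Insm1. Cerkl had 0 to 4 counts and Gm26755 0 to 1 count per library. Whether reads in the shared parts were counted or set aside is not given in the sources used here.

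The order of the genes by level was set out first, as CPM per kilobase of exon. Neurod6, a late factor of postmitotic excitatory neurons, was at the top with 355 ± 39.2 (SD, n = 6) CPM per kilobase and a range from 295 to 398. Neurod2, which acts beside it in maturing neurons, followed at 169 ± 12.2 (SD, n = 6). The ranges of these 2 genes did not overlap with each other or with any gene below. Neurog2, Eomes and Insm1 formed the next group, at 61.0 ± 9.30, 53 ± 7.84 and 52.4 ± 3.57 (SD, n = 6) CPM per kilobase. Their ranges overlapped, although Neurog2 was above Eomes within each of the 6 libraries. This order of Neurog2 and Eomes turned when the longest transcript stood in for the union of exons, with Eomes at 61.9. Gadd45g (30.5 ± 2.79), Neurod1 (27.1 ± 4.40) and Btg2 (22.1 ± 3.30, SD, n = 6) came next, with Neurod1 overlapping both and Gadd45g above Btg2 without overlap. Neurog1 and Neurod4 were lowest, at 7.23 ± 2.17 and 3.56 ± 0.605 (SD, n = 6) CPM per kilobase, and each was apart from its neighbors in the order.

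**Figure D1:**
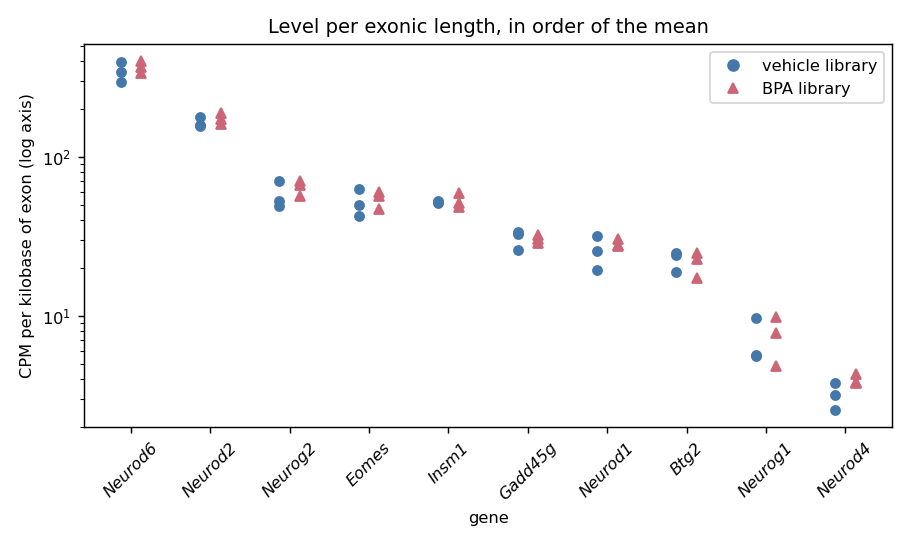
Levels of the 10 genes as CPM per kilobase of exon on a log axis, ordered by their mean, with circles for the 3 vehicle and triangles for the 3 BPA libraries. Neurod6 (mean 355) and Neurod2 (mean 169) stand above the rest, Neurog1 and Neurod4 are below 10, and for 9 of the 10 genes the circles and triangles overlap.

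The neurogenins, which start the cascade, were compared first. Neurog2 (ENSMUSG00000027967.8, chromosome 3, 127633135 to 127635631, plus strand, 2 exons) is the main neurogenin of the dorsal cortex. Its level was 109, 156 and 118 CPM in the vehicle libraries and 158, 147 and 127 CPM in the BPA libraries, in replicate order. Vehicle replicate 1 was lowest and vehicle replicate 2 lay beside the highest BPA library, so the groups overlapped. Vehicle averaged 128 CPM ± 25 and BPA 144 CPM ± 15.9 (SD, n = 3 each). In edgeR's quasi-likelihood test the log2 fold change was 0.17 (SE 0.131) with a 95% interval from -0.10 to 0.45 and an unadjusted p of 0.201.

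Neurog1 (ENSMUSG00000048904.5, chromosome 13, 56250478 to 56252163, minus strand, 1 exon) was less abundant. Its counts were 65, 116 and 48 in vehicle and 105, 81 and 28 in BPA, or 9.56, 16.3 and 9.47 CPM and 16.5, 13.2 and 8.17 CPM, respectively. The highest and the lowest library were both BPA libraries. Its log2 fold change was 0.13 (SE 0.252, interval -0.40 to 0.66), the least precise of the cascade. Neurog3, the third neurogenin and a pancreatic endocrine factor, had 0 counts in all 6 libraries.

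Eomes (ENSMUSG00000032446.14, chromosome 9, 118478212 to 118486132, plus strand, 6 exons) encodes the T-box factor that defines intermediate progenitors. It was at 177, 259 and 208 CPM in vehicle and 249, 235 and 194 CPM in BPA, with vehicle libraries at both ends. The means of 215 CPM ± 41.7 and 226 CPM ± 28.7 (SD, n = 3 each) gave a fold of 1.05, with an interval from 0.869 to 1.28. Insm1 (ENSMUSG00000068154.5, chromosome 2, 146221921 to 146225020, plus strand, 1 exon), a zinc finger factor that promotes the formation of basal progenitors, varied least in vehicle. Its vehicle libraries were at 158, 164 and 162 CPM and its BPA libraries at 149, 183 and 159 CPM, so that BPA enclosed vehicle on both sides. The fold for Insm1 was 1.01, with an interval from 0.874 to 1.18.

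**Figure D2:**
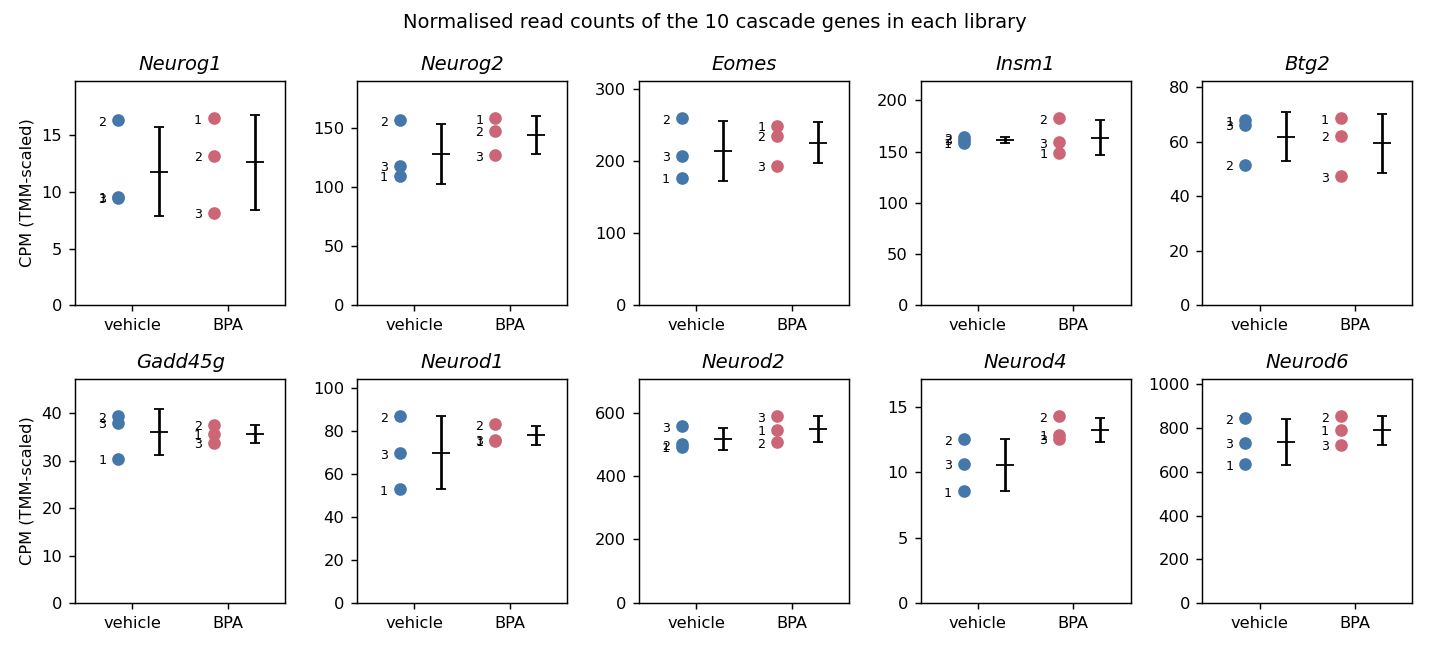
TMM-scaled CPM of each gene in each library, with replicate numbers beside the points and bars for the mean and SD of 3 libraries per group. In 9 panels the vehicle and BPA points overlap, and in the Neurod4 panel they are apart by 0.02 CPM.

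Btg2 and Gadd45g are growth-restraining genes that are switched on as progenitors turn to neurogenic division. Btg2 (ENSMUSG00000020423.6, chromosome 1, 134075170 to 134079120, minus strand, 2 exons), also called Tis21, was at 67.8, 51.4 and 66.1 CPM in vehicle and 68.5, 62.1 and 47.3 CPM in BPA. Vehicle replicate 2, the highest library for Eomes, was the lowest of its group for Btg2, and the ranges overlapped. Its fold was 0.971, with an interval from 0.786 to 1.2. Gadd45g (ENSMUSG00000021453.2, chromosome 13, 51846678 to 51848468, plus strand, 4 exons) was at 30.4, 39.4 and 38.1 CPM in vehicle and 35.6, 37.5 and 33.8 CPM in BPA. BPA lay within the vehicle range for Gadd45g, and the fold was 0.996, with an interval from 0.822 to 1.21.

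Btg2 is also known as a target of p53 and as an immediate early gene, so both lists were read beside it. Of 9 tested p53 targets, 3 had a fold above 1 and 6 below, with a median log2 fold change of -0.09, and 1 (Bax, which promotes cell death) had an unadjusted p under 0.05. Bax was at 56.9 to 61.1 CPM in vehicle and 45.8 to 47.9 CPM in BPA, without overlap, but its adjusted p was 1. Of all genes tested, 1.18% were called lower in BPA at this unadjusted level and 3.56% were apart in this direction. Eda2r of the same list was at 1.32 to 2.96 CPM and 2.20 to 3.25 CPM. Among 6 tested immediate early genes 1 was above and 5 below a fold of 1 (median log2 fold change -0.15), and 0 reached an unadjusted p under 0.05. Nr4a1 and Egr1, the nearest to it, were at 8.48 to 10.7 CPM and 3.35 to 8.73 CPM in vehicle and at 7.64 to 9.04 CPM and 2.44 to 7.0 CPM in BPA. Relatives of the cascade genes by family gave 6 tested genes of 13, with 4 above and 2 below a fold of 1 and 0 at an unadjusted p under 0.05. The antiproliferative genes Tob1 (log2 fold change 0.20) and Tob2 (-0.10) of the Btg2 family had the smallest p among them. Neurog3, Atoh1, Atoh7, Btg3 and Btg4 of this list had at most 3 counts in any library, where a difference was not detectable.

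The Neurod factors carry the cascade into neurons. Neurod1 (ENSMUSG00000034701.9, chromosome 2, 79452521 to 79456751, minus strand, 2 exons) follows Eomes in late intermediate progenitors. It was at 52.9, 87.0 and 69.6 CPM in vehicle and 75.4, 83.2 and 75.9 CPM in BPA. All 3 BPA libraries lay between vehicle replicates 2 and 3, and the fold was 1.12, with an interval from 0.899 to 1.39 and an unadjusted p of 0.290. Neurod4 (ENSMUSG00000048015.4, chromosome 10, 130268152 to 130280240, minus strand, 2 exons), a factor of neuronal commitment, had the largest estimate of the cascade. It was at 8.53, 12.5 and 10.6 CPM in vehicle and 12.9, 14.3 and 12.5 CPM in BPA, from 43 to 89 counts per library.

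Neurod4 was the 1 member of 10 without overlap between the groups, where 6.75% of all genes tested had none, 3.19% with BPA above vehicle. The gap was narrow: the highest vehicle library had 12.53 CPM and the lowest BPA library 12.55 CPM, and counting error alone gave the latter an exact 95% Poisson interval from 9.08 to 16.9 CPM. The log2 fold change was 0.33 (SE 0.189), with an interval from -0.07 to 0.73, an unadjusted p of 0.101 and rank 751 by p among the 13741 genes. Without vehicle replicate 1, the lowest library, it was 0.19 with an unadjusted p of 0.350.

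Neurod2 (ENSMUSG00000038255.6, chromosome 11, 98325415 to 98329648, minus strand, 2 exons) was at 492, 500 and 557 CPM in vehicle and 545, 506 and 589 CPM in BPA. Neurod6 (ENSMUSG00000037984.9, chromosome 6, 55677822 to 55681263, minus strand, 2 exons) was at 634, 846 and 734 CPM in vehicle and 794, 855 and 723 CPM in BPA. Both are abundant and overlapped between the groups. The fold was 1.06 for Neurod2, with an interval from 0.920 to 1.22, and 1.07 for Neurod6, with an interval from 0.911 to 1.26.

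**Figure D3:**
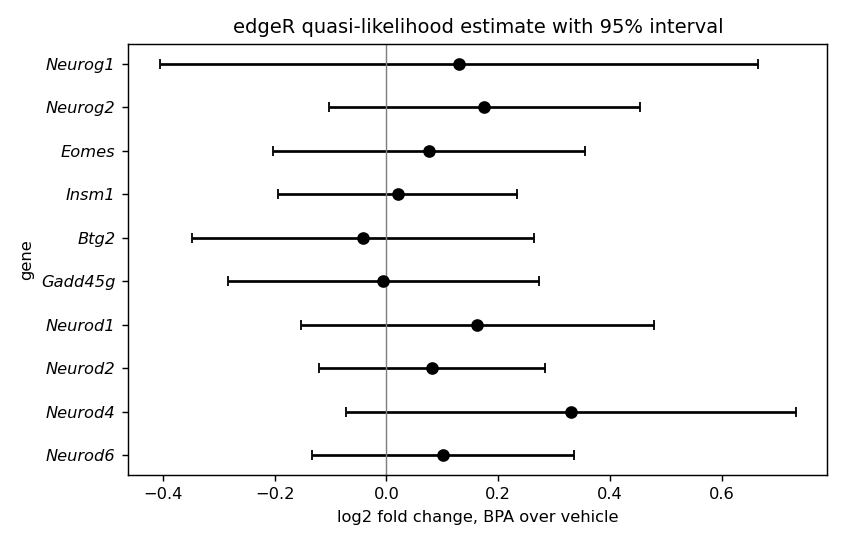
Log2 fold change of BPA over vehicle for each gene from edgeR's quasi-likelihood fit (points) with its 95% interval (bars, 3 libraries against 3). All 10 intervals cover 0, and the widest are those of Neurog1 (-0.40 to 0.66) and Neurod4 (-0.07 to 0.73).

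Fetuses of the same group differed in most of these genes, and the spread within and between groups was not compared by a test. Vehicle replicate 1 was the lowest of the 6 libraries for 7 of the 10 members: Neurog2, Eomes, Gadd45g, Neurod1, Neurod2, Neurod4 and Neurod6. Over all genes tested, the same library was lowest for 17.8%. Relative to each gene's own mean over the 6 libraries, the median of the 10 members was -0.28 on the log2 scale in vehicle replicate 1 and 0.15 in vehicle replicate 2, and from -0.07 to 0.14 in the BPA libraries. The 2 vehicle libraries were thus further apart than any pair of BPA libraries, and they bracketed all 3. Neurog2, Eomes, Gadd45g, Neurod1, Neurod4 and Neurod6 shared this order of vehicle libraries, with replicate 1 lowest, then 3, then 2. Btg2 ran opposite, with replicate 2 lowest, and Insm1 was nearly level, at -0.03 to 0.02 in vehicle.

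The small excess of folds above 1 depended on these libraries. The median log2 fold change of the members was 0.09, beside 0.0016 for all genes tested. It was 0.0046 without vehicle replicate 1, 0.23 without vehicle replicate 2 and 0.17 without BPA replicate 3. Without vehicle replicate 2, Neurog2 (log2 fold change 0.35, unadjusted p of 0.00885), Neurod1 (0.36, 0.0163) and Neurod4 (0.49, 0.0293) reached an unadjusted p under 0.05, with no member below an adjusted p of 0.949. In that fit 5.10% of all genes tested were called at this level, 2.70% with a higher level in BPA. Vehicle replicate 2 was one of the 2 libraries with choroid plexus transcripts. Leaving out both of them left Neurog2 (unadjusted p of 0.0118) and Neurod1 (0.0338) under 0.05, with a smallest adjusted p of 0.567 over the members, where 6.99% of all genes tested were called, 4.12% with a higher level in BPA.

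**Figure D4:**
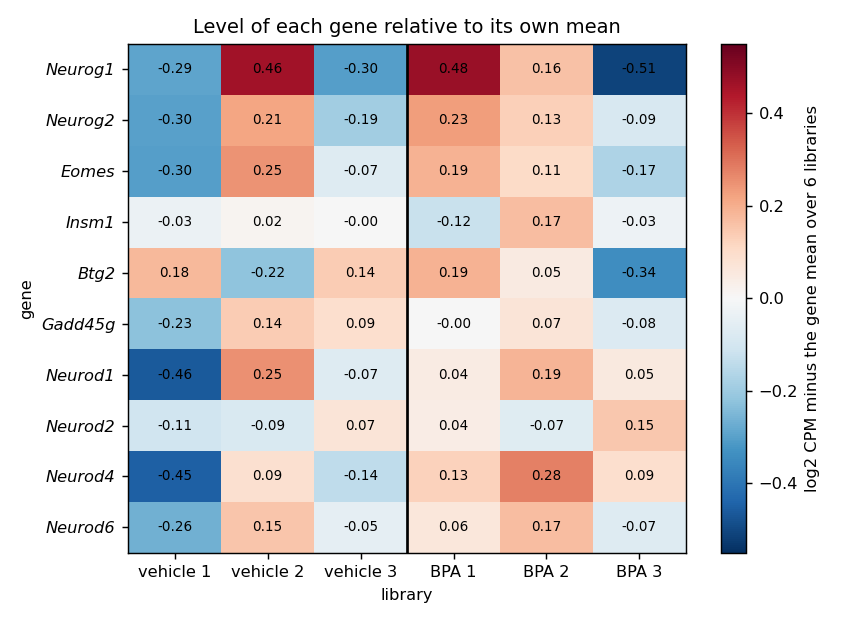
Log2 CPM of each gene minus its mean over the 6 libraries, with vehicle to the left and BPA to the right of the line and the value written in each cell. Vehicle replicate 1 is below the mean for 9 of the 10 genes (all but Btg2) and vehicle replicate 2 above it for 8, while BPA replicate 3 ranges from -0.51 for Neurog1 to 0.15 for Neurod2.

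Neurog2, Eomes and Neurod1 were the members whose promoter held the heptamer TATATAA, a form of the TATA box, and the promoters of the first 2 are shown. The lines give the 250 bases before the RefSeq start site on GRCm38.p6, 5′ to 3′ on the gene's strand, with TATATAA in capitals. Neurog2 is chr3:127632886-127633135 and Eomes chr9:118477939-118478188, both on the plus strand.
Neurog2: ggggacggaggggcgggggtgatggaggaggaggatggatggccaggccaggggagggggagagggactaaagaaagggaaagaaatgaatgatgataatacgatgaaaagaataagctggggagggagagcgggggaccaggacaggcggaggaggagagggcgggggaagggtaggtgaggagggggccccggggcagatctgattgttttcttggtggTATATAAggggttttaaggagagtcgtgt
Eomes: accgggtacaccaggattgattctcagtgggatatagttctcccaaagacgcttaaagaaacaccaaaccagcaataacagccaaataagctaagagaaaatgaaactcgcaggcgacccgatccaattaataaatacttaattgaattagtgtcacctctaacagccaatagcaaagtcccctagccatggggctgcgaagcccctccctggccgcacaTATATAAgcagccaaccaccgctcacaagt

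TATATAA began 29 bases before the start in Neurog2, 30 in Eomes and 31 in Neurod1. It was looked for on both strands, after the sequences had been seen. Other forms of the TATA box were not searched, so the remaining members may hold one. It was in 3 of the 9 members with a promoter entry and in 3.04% of all 32851 promoter windows of this length. The E-box CANNTG, the general binding motif of bHLH factors, was absent from the windows shown and present in those of Gadd45g, Neurod1, Neurod2 and Neurod6, against 66.2% of all windows. Of its forms, CAGATG occurred in the window of Neurod2 (14.4% of all windows) and CAGCTG in that of Gadd45g (13%), both strands searched.

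Genes that work beside the cascade were read from lists written from general knowledge. Of 14 tested partners of intermediate progenitors, 8 had a fold above 1 and 6 below, with a median log2 fold change of 0.01, and 1 was called at an unadjusted p under 0.05. This was Nhlh2, a bHLH gene of early neurons, at 23.4, 37.7 and 31.0 CPM in vehicle and 35.8, 41.3 and 42.0 CPM in BPA (log2 fold change 0.36, unadjusted p of 0.0353, adjusted p of 1). Vehicle replicate 1 was again lowest and vehicle replicate 2 overlapped with BPA. Sstr2, a somatostatin receptor gene enriched in intermediate progenitors, was at 82.2, 87.7 and 85.6 CPM in vehicle and 101, 100.1 and 93.1 CPM in BPA. Its groups did not overlap, with a log2 fold change of 0.21 and an unadjusted p of 0.0564, where 3.19% of all genes tested were apart in this direction. Hes6, a bHLH gene named after its values were seen, was apart in the other direction (3.56% of all genes), at 87.3 to 95.6 CPM in vehicle and 85.2 to 86.7 CPM in BPA. Celsr3 of this list had 0 counts in all 6 libraries, and whether reads could be counted under this symbol was not tested.

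Radial glia genes, which mark the cells upstream, numbered 8 above and 7 below a fold of 1 among 15 tested, with a median log2 fold change of 0.01. The progenitor factor Sox2 was at 133 to 150 CPM in vehicle and 110 to 137 CPM in BPA, and the Notch effector Hes5 at 14.8 to 17.7 CPM and 10.7 to 15.4 CPM, both with overlap. Excitatory neuron genes, downstream, numbered 10 above and 5 below of 15 (median 0.04), with Tubb3 and Nrp1 nearest to the threshold at log2 fold changes of -0.14 and 0.14. Cell cycle genes numbered 3 above and 12 below of 15 (median -0.04), led by Ccnd1 (-0.14) and Ccnb1 (0.12). Dorsal pallium markers numbered 6 above and 4 below of 10 (median 0.0072), led by Bcl11b (-0.11) and Slc17a6 (0.09). None of these 4 lists had a gene at an unadjusted p under 0.05. Partners and antagonists of bHLH factors numbered 7 above and 9 below of 16 tested, with a median log2 fold change of -0.01. Of these, 2 had an unadjusted p under 0.05 with a lower level in BPA, against 1.18% of all genes tested. In the same direction 3 did not overlap between the groups, against 3.56% of all genes tested. Among them Olig2, a bHLH gene of the ventral telencephalon and of glia, was at 16.2 to 19.7 CPM in vehicle and 12 to 15 CPM in BPA, without overlap (unadjusted p of 0.0173, adjusted p of 1).

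Markers of the ventral telencephalon, whose progenitors lie beside the cortex, had lower estimates in BPA, although none passed the adjusted threshold. All 12 listed genes had a fold below 1, with a median log2 fold change of -0.29, 6 had an unadjusted p under 0.05 where 1.18% of all genes tested were called in this direction, and 9 did not overlap, against 3.56% of all genes tested in this direction. Their summed level was 1126 to 1285 CPM in vehicle and 972 to 1078 CPM in BPA. Dlx1 and Gad2 were the most abundant, at 346 to 375 and 159 to 194 CPM in vehicle and 284 to 333 and 151 to 158 CPM in BPA. Within this list, Nkx2-1 (log2 fold change -1.25) and Lhx8 (-1.34) had the smallest p in edgeR's quasi-likelihood test, with adjusted p of 0.251 and 1. The part of these lower estimates in the values of the cascade genes was not tested. The cascade genes' own summed level was 1740 to 2132 CPM in vehicle and 1969 to 2137 CPM in BPA, with overlap.

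**Figure D5:**
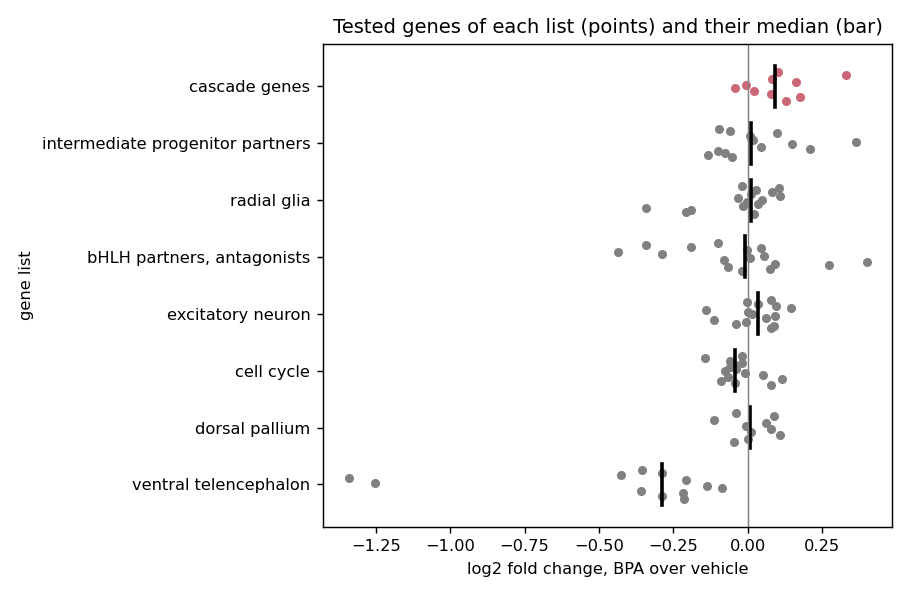
Log2 fold change of BPA over vehicle for the tested genes of 8 lists (points) and the median of each list (bars). The medians of the cascade genes (0.09), intermediate progenitor partners (0.01), radial glia (0.01), excitatory neurons (0.04) and dorsal pallium (0.0072) are near 0, and all 12 ventral telencephalon genes lie below 0 (median -0.29).

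Markers of other tissues were read in the same way. Thalamus, a further site of neurogenin expression, had 3 tested markers of 6, summed at 112 to 127 CPM in vehicle and 99.0 to 113 CPM in BPA. Foxp2, which the cortex also expresses, made up most of this sum, at 72.6 to 88.2 CPM and 62.2 to 68.9 CPM without overlap (unadjusted p of 0.0325, adjusted p of 1). Of all genes tested, 1.18% were called lower in BPA at an unadjusted p under 0.05 and 3.56% were apart in this direction. Tcf7l2 was at 9.75 to 16.3 CPM and Lhx9 at 17.6 to 32.0 CPM over all libraries. Of the thalamic genes with too few counts to be tested, Olig3 had 1 to 12 counts per library. Gbx2, named after its values were seen, had 8 to 19 counts in vehicle and 2 to 7 in BPA. Its groups did not overlap (1.58 to 2.79 against 0.314 to 1.46 CPM), but the share of 3.56% is over tested genes, and Gbx2 was not tested. The closest libraries had 8 counts (vehicle replicate 3) and 5 counts (BPA replicate 3), so the gap rests on few counts. Blood markers summed to 264 to 589 CPM in vehicle and 315 to 402 CPM in BPA, with Hba-a1 at 99.7 to 224 CPM and 111 to 132 CPM (unadjusted p of 0.0452) and Hbb-bs at 141 to 324 CPM and 178 to 231 CPM. Vessel and meningeal markers, with Kdr, Pdgfrb and Col3a1 among them, summed to 155 to 207 CPM and 153 to 202 CPM, and microglial markers, with Csf1r, Cx3cr1, Fcrls and C1qa, to 48.6 to 61.3 CPM and 52.6 to 59.0 CPM. Glial lineage markers summed to 70.0 to 83.2 CPM in vehicle and 55.7 to 80.2 CPM in BPA. All 6 had a fold below 1, with Olig1 (log2 fold change -0.45, unadjusted p of 0.0303) and Pdgfra (-0.14) the most abundant. Clic6 of the choroid plexus was at 0.588 to 11.1 CPM in vehicle and 1.17 to 18.5 CPM in BPA.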

How the data were processed

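Gene counts of 6 cortex libraries were used as the authors deposited them, as whole read counts per gene symbol with no normalization. According to the study's methods, strand-specific libraries were read as single-end 50-base reads, aligned with TopHat to GRCm38 and summarized with featureCounts on GENCODE models, with StringTie also named for assembly. The use of strand and of multi-mapping reads in counting is not given in the sources used here. Groups came from the treatment labels, and replicates were numbered 1 to 3 in accession order. The cascade genes, the other gene lists and the tests were chosen with earlier results of these data known.

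Genes were kept by filterByExpr of edgeR 4.0.16 (R 4.3.3, minimum count 10, minimum total 15), which left 13741 genes, and scaled by TMM. The quasi-likelihood test of edgeR compared BPA with vehicle with no covariate, at a threshold of 0.1 on Benjamini-Hochberg adjusted p over all genes. CPM used the TMM-scaled totals of the tested genes, and log2 CPM a prior count of 2. Standard errors and 95% intervals follow from the quasi-likelihood statistic. 3 counts, treated as the limit of detection, equal 0.422 CPM in the deepest library and 0.875 CPM in the shallowest, and intervals on counts cover counting error only. Coordinates and exon lengths are from GENCODE M21 (GRCm38) and promoters from RefSeq (GRCm38.p6). All 10 members were named, and of each other list the 2 genes with the smallest p at 1 CPM or more and, for cell type markers, the 2 most abundant. For Eomes and Neurod6 the 5 genes nearest by root mean square difference, at 10 CPM or more, were also named. The result of 1 gene that this rule names is not reported here. Alternatives were DESeq2 1.42.0, limma-voom (limma 3.58.1), edgeR's exact test, 3 other scalings, 2 other filters and omission of each library. Omission of both libraries with choroid plexus transcripts was chosen after seeing the data. Scripts were tested on simulated counts.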

Additional observations from a re-analysis of the deposited data

How the results depend on the processing

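The number of members with an adjusted p under 0.1 was 0 in all 15 alternative fits. At an unadjusted p under 0.05 it was 0 to 3 when 1 library was left out (3 without vehicle replicate 2) and 2 without both libraries with choroid plexus transcripts, and 0 in the other fits. Members with a fold above 1 numbered 6 to 10. Over all genes tested, the count at an adjusted p under 0.1 was 3 with DESeq2, 2 with the exact test, 19 with no filter, 15 without both choroid plexus libraries and 0 to 1 when 1 library was left out. The count at an unadjusted p under 0.05, 302, became 126 with DESeq2, 620 with no filter, 162 with the 10 CPM filter, 954 without both choroid plexus libraries and 194 to 708 when 1 library was left out, lowest without vehicle replicate 3 or BPA replicate 1 and highest without vehicle replicate 2 (708) or BPA replicate 2 (563). The cause was not tested.

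Of 150 values of single members, 135 kept their direction and 15 did not. Leaving out 1 library gave log2 fold changes from -0.11 to 0.46 for Neurog1, -0.046 to 0.24 for Eomes, -0.071 to 0.085 for Insm1, -0.16 to 0.083 for Btg2, -0.11 to 0.074 for Gadd45g and -0.0063 to 0.36 for Neurod1. Gadd45g was also above 0 with limma-voom (0.0082), total count scaling (4.5e-05) and without both choroid plexus libraries (0.041), and Insm1 was at -0.051 without both. With the longest transcript as length, 8 of 10 members kept their rank by level. No paired analysis was run, because the labels give the groups no shared replicate numbers. Depth limited Neurog1 and Neurod4 most, with 28 to 116 counts per library.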

Other observations

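Within a library, Eomes counts were 1.62, 1.66 and 1.76 times those of Neurog2 in vehicle and 1.58, 1.59 and 1.53 times in BPA, in replicate order. These 2 sets did not overlap, but the closest values had counting intervals of 1.48 to 1.77 (vehicle replicate 1) and 1.47 to 1.73 (BPA replicate 2), and this ratio was 1 of 5 looked at. The others overlapped: Neurod6 over Eomes was 3.19 to 3.73 over all 6 libraries, Neurod2 over Neurod6 0.591 to 0.814, Neurod1 over Eomes 0.300 to 0.392 and Neurog1 over Neurog2 0.0645 to 0.105.

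The genes whose pattern over the 6 libraries was most like that of Eomes, by root mean square difference of centred log2 CPM, were Ss18 (0.0267), Pdlim7 (0.0304), Rexo4 (0.0382), Vps72 (0.0397) and Ech1 (0.0443). Neurog2 was the nearest member, at rank 52 of 10009 genes (0.0646), followed by Neurod6 at rank 132 (0.0830). For Neurod6 they were Cog1 (0.0220), Npdc1 (0.0264), Zbtb4 (0.0289), Adrm1 (0.0290) and Colgalt1 (0.0313), and the nearest member was Gadd45g at rank 224 (0.0769).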
